A study of Mus musculus with 16 samples.

Results

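Tumours of mice given micronuclei-loaded dendritic cells were compared between MC38 cells carrying microsatellite instability (MSI) and MC38 cells carrying chromosomal instability (CIN). The comparison used every library with Micronuclei in its title, 8 of the 16 libraries of the series: 4 of MSI tumours against 4 of CIN tumours. MC38 is a colon carcinoma line of C57BL/6 mice. Cells of the MSI or the CIN line were injected into the wall of the descending colon on day 1. Dendritic cells grown from bone marrow were exposed for 30 minutes, with a lipid transfection reagent, to 2 µg of micronuclei from MSI or from CIN cells. The mice received these dendritic cells by intraperitoneal injection on days 1, 6 and 12. Tumour RNA was taken on day 15. The 4 groups were MSI tumour with MSI micronuclei, MSI tumour with CIN micronuclei, CIN tumour with MSI micronuclei and CIN tumour with CIN micronuclei, with 2 libraries in each. Equal RNA amounts of 3 biological replicates were mixed, and the sources used here do not say whether a library is 1 such mixture, so p-values here reflect only library-to-library spread, some of which may be technical. Each tumour type came from what the labels name as 1 kind of MC38 cell, so instability type and cell line cannot be told apart. The age and sex of the mice are not given in the sources used here. No tumour with unexposed dendritic cells was analysed here, so no effect of micronuclei as such can be read from these 8 libraries.

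Microsatellite instability arises when DNA mismatch repair fails and short repeated sequences change length at replication. Chromosomal instability is the repeated missegregation of chromosomes, and lagging chromosomes can be enclosed in micronuclei, small nuclei with a fragile envelope. DNA that leaks from a ruptured micronucleus can bind the sensor cGAS, which signals through STING and TBK1 to interferon genes, and dendritic cells can carry this signal to T cells.

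The tumours were bulk tissue, and their makeup differed between libraries. Total counts ran from 11561955 to 16257338 per library, and mitochondrial genes took 1.57 to 3.68% of them. Markers of the labelled tissue were present but uneven: Epcam, an epithelial adhesion molecule, was at 68.0 to 1357 CPM (counts scaled to library size with TMM factors) in MSI tumours and at 12.7 to 716.7 CPM in CIN tumours, and the intestinal factor Cdx2 was at 0 in 1 CIN tumour library. The mean log2 CPM of 25 colon epithelium genes was 4.50 to 8.77 in MSI tumours and 2.33 to 8.42 in CIN tumours, with the lowest value in CIN tumour with MSI micronuclei 1. Skeletal muscle genes stood out in 3 libraries, at 5.23 in MSI tumour with CIN micronuclei 1 and at 3.95 and 3.77 in both libraries of CIN tumour with MSI micronuclei, against -0.59 to 0.01 in the other 5. Ptprc, the pan-leukocyte marker CD45, was close in all 8, at 77.3 to 94.8 CPM in MSI tumours and 62.2 to 85.0 CPM in CIN tumours. In such tissue, fewer cells of a type and less RNA per cell cannot be told apart.

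**Figure D1:**
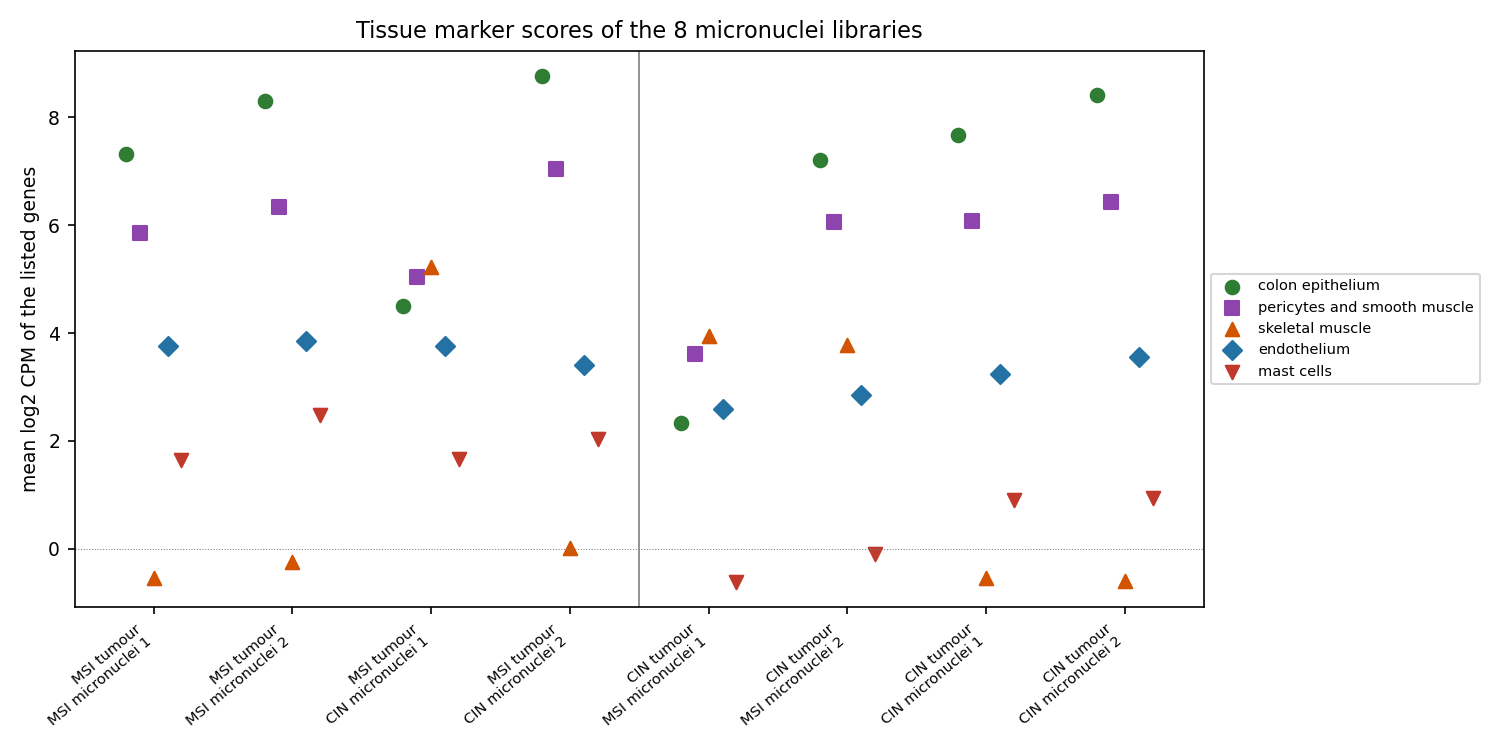
Mean log2 CPM of 5 marker lists (vertical axis) in each of the 8 micronuclei libraries (horizontal axis, MSI tumours left of the line and CIN tumours right of it), 1 symbol per list. Skeletal muscle genes were high in 3 libraries, 1 of MSI and 2 of CIN tumours, while mast cell genes were at 1.64 to 2.48 in MSI tumours and at -0.62 to 0.94 in CIN tumours.

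Few genes separated the tumour types, and most of those were lower in MSI tumours. Of 17591 genes tested with DNA source as a covariate, 39 differed at an adjusted p under 0.05 (0.222%): 5 were higher (0.0284%) and 34 lower (0.193%) in MSI tumours, and 1696 had an unadjusted p under 0.05. In each of the 39 the 4 MSI libraries did not overlap the 4 CIN libraries in CPM, as was also the case for 3.58% (higher) and 3.88% (lower) of all genes tested. Their log2 fold changes, MSI over CIN, ran in size from 0.74 to 6.76, and the smallest adjusted p was 0.0176 (edgeR). Same-numbered libraries of the 4 groups deviated together, although the labels state no pairing. With the replicate number as a block 65 genes were called (0.37%), 11 higher and 54 lower, among them 38 of the 39. The number of calls hung on single libraries. It was 0 without either MSI tumour with MSI micronuclei library, without either CIN tumour with CIN micronuclei library or without CIN tumour with MSI micronuclei 2, 3 without CIN tumour with MSI micronuclei 1, 33 without MSI tumour with CIN micronuclei 2, and 1403 (7.58%) without MSI tumour with CIN micronuclei 1, the library richest in skeletal muscle genes. All 39 kept their sign in each of these fits, which says little for genes without overlap. With the colon epithelium score as a covariate all 39 stayed among 244 calls (1.39%), and with the skeletal muscle score 37 stayed among 49. DESeq2 called 942 of the same genes (5.36%), among them all 39. In what follows a gene was called where it passed in edgeR with the DNA source covariate. Where a list has no such gene, its count at an unadjusted p under 0.05 in edgeR (U) and its count of DESeq2 calls (D) are given. Over all 17591 genes tested U was 1696 and D was 942, the background for these counts.

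**Figure D2:**
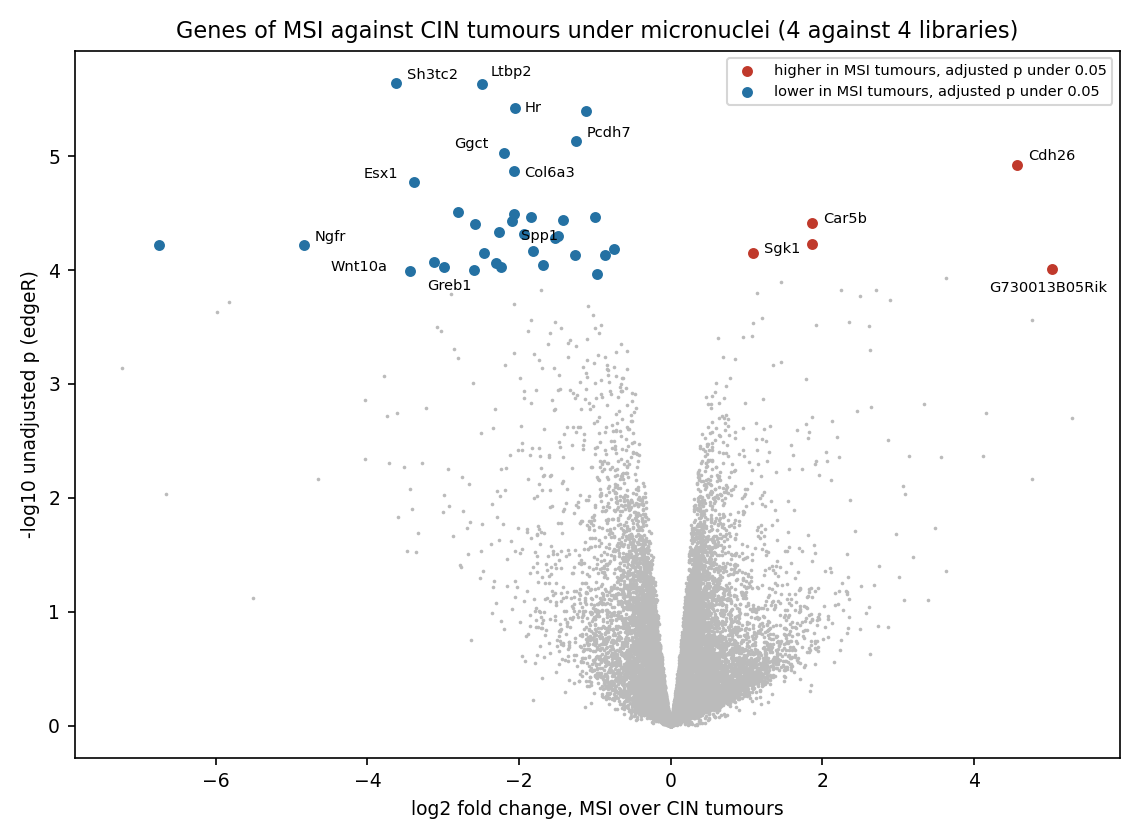
Log2 fold change of MSI over CIN tumours (horizontal axis) against -log10 of the unadjusted edgeR p (vertical axis) for the 17591 genes tested in 4 against 4 libraries. The 34 genes called lower in MSI tumours are blue and the 5 called higher are red.

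Among the falls were receptors and adhesion molecules best known from neurons and their supporting cells. Ngfr, a receptor for neurotrophins found on neural crest derived cells and on some tumours (chr11:95568818-95587735, GRCm38), was at 3.45, 2.72, 0.436 and 3.55 CPM in the MSI tumour libraries and at 105, 68.3, 53.4 and 62.8 CPM in the CIN tumour libraries, here and below listed with MSI micronuclei 1 and 2 first and CIN micronuclei 1 and 2 after them. Every CIN tumour library was more than 10 times above the highest MSI one (log2 fold change -4.83 ± 0.57, adjusted p = 0.0434). It was the 1 call lost with the replicate block (adjusted p = 0.0575). Sh3tc2, which Schwann cells need to build peripheral myelin, was at 1.35, 1.88, 2.06 and 1.33 CPM in MSI tumours, against 28.8, 25.6, 16.2 and 14.7 CPM in CIN tumours (log2 fold change -3.62 ± 0.29, adjusted p = 0.0176). Nrcam, a neuronal adhesion molecule of the L1 family, was at 0.841, 1.23, 0.686 and 0.57 CPM in MSI tumours, against 6.42, 6.05, 6.35 and 4.12 CPM in CIN tumours (log2 fold change -2.80 ± 0.32, adjusted p = 0.0404). In both genes all 4 CIN tumour libraries were at least 3 times the highest MSI tumour library. Epha8, an ephrin receptor, fell (log2 fold change -2.06 ± 0.24, adjusted p = 0.0404), as did Sema7a, a membrane-anchored semaphorin (log2 fold change -0.87 ± 0.11, adjusted p = 0.0434), Sorcs2, a sorting receptor of neurons (log2 fold change -1.26 ± 0.16, adjusted p = 0.0434), and Tenm3, a teneurin of synaptic contacts (log2 fold change -1.84 ± 0.21, adjusted p = 0.0404).

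Protocadherins, cadherin-like molecules that neurons use to recognise each other, gave 4 calls among the 36 tested genes whose symbols start with Pcdh, all lower in MSI tumours, where 0.193% of all genes were called lower. This family was grouped after its values were seen. Of the 36, 28 had a negative fold change (median -0.71, against 0.06 over all genes tested) and DESeq2 called 10, all lower. Of all 17591 genes tested DESeq2 called 558 lower. Pcdhb16 was at 1.18, 1.36, 1.62 and 1.58 CPM in MSI tumours, against 7.3, 10.2, 5.14 and 9.14 CPM in CIN tumours (log2 fold change -2.46 ± 0.32, adjusted p = 0.0434). Pcdhga6 was at 1.35, 2.27, 1.43 and 1.27 CPM in MSI tumours, against 7.91, 10.2, 4.98 and 8.31 CPM in CIN tumours (log2 fold change -2.31 ± 0.31, adjusted p = 0.0471). The gamma genes share their last exons and the beta genes are close copies, so the counting could have split their reads. Pcdhb17 fell by 1.68 ± 0.22 and Pcdh7, which lies outside these clusters, by 1.25 ± 0.12 on the log2 scale (adjusted p = 0.0471 and 0.0261).

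Of 22 tested genes of a neurotrophin and neural list, 0 rose and 2 fell (Ngfr and Nrcam). Of these genes 14 had a positive log2 fold change, with a median of 0.26 against 0.06 over all genes tested. The median was -0.41 without the 3 libraries rich in skeletal muscle genes. With DNA source as covariate, the tumour term of that fit, here and below, rests on CIN micronuclei alone. It compares 1 MSI tumour library (CIN micronuclei 2) with 2 CIN tumour libraries, so it is no clean check of tissue makeup. Another 5 members had 4 against 4 libraries without overlap and less in MSI tumours, as 3.88% of all genes did, and did not pass the test in edgeR, although DESeq2 called all 5. They were L1cam, a neural adhesion molecule (log2 fold change -1.62 ± 0.27, adjusted p = 0.102), Ncam1 (log2 fold change -1.96 ± 0.47, adjusted p = 0.23), the neuronal tubulin Tubb3 (log2 fold change -1.23 ± 0.28, adjusted p = 0.198), Nrn1 (log2 fold change -3.74 ± 0.78, adjusted p = 0.181) and the receptor Gfra2 (log2 fold change -0.70 ± 0.20, adjusted p = 0.307). Gap43, a protein of growing axons, was without overlap the other way, at 4.2 to 7.45 (MSI) and 0.176 to 4.19 CPM (CIN) (log2 fold change 1.14 ± 0.72, adjusted p = 0.679). With the replicate block L1cam (-1.67 ± 0.21, adjusted p = 0.0398) and Tubb3 (-1.26 ± 0.12, adjusted p = 0.0204) passed. Genes of enteric neurons and glia gave 0 calls of 14 (U 1, D 0), with a median of 0.72 and a score of 0.22 to 2.84 in MSI and -0.44 to 2.60 in CIN tumours. Of the 14, 11 had a positive fold change, but Cdh19, a cadherin of Schwann cells, was lower in MSI tumours without overlap and did not pass. In CIN tumour with MSI micronuclei 1 the enteric score was lowest and Ngfr highest. Which cells the Ngfr reads came from was not tested. Of the 37 tested genes on the ephrin and axon guidance list, which holds neither Epha8 nor Sema7a, none was called (U 9, D 7), with a median of 0.32. The DESeq2 calls were Amigo2, Ntn4, Sema3a and Sema3c (higher) and Nrp2, Ntn1 and Plxnd1 (lower). The repellent Sema3a was at 27.7, 22, 28.7 and 20.2 CPM in MSI tumours, against 7.82, 6.93, 11.5 and 10.2 CPM in CIN tumours (log2 fold change 1.46 ± 0.20, adjusted p = 0.0543), and it passed with the block (1.45 ± 0.17, adjusted p = 0.0382).

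Some called genes encode proteins of the matrix or the cell surface, although the fibroblast and matrix list held 1 call. Ltbp2, a matrix protein that binds fibrillin and is related to the carriers of latent TGF-beta (chr12:84783212-84876532), was at 85.2, 85.3, 89.1 and 56.8 CPM in MSI tumours, against 628, 544, 331 and 338 CPM in CIN tumours (log2 fold change -2.49 ± 0.20, adjusted p = 0.0176). Col6a3, a chain of type VI collagen (chr1:90765923-90843971), was at 420.0, 364, 402 and 221 CPM in MSI tumours, against 1824, 1926, 1093 and 1192 CPM in CIN tumours (log2 fold change -2.07 ± 0.21, adjusted p = 0.0295). Spp1, which encodes the secreted phosphoprotein osteopontin of macrophages and tumour cells (chr5:104435118-104441050), was at 248, 164, 226 and 122 CPM in MSI tumours, against 800.1, 639, 650.2 and 582 CPM in CIN tumours (log2 fold change -1.81 ± 0.23, adjusted p = 0.0434). In all 3 genes the lowest CIN tumour library was at least 2 times the highest MSI one. Spp1 was the 1 call among 20 tested macrophage and monocyte genes, of which 10 had a positive and 10 a negative fold change (median 0.06). Enzymes that cut or edit the matrix fell too: Htra3, a secreted serine protease (log2 fold change -1.93 ± 0.23, adjusted p = 0.0434), Plat, the tissue plasminogen activator (log2 fold change -1.42 ± 0.17, adjusted p = 0.0404), Sulf2, a sulfatase of heparan sulfate chains (log2 fold change -1.002 ± 0.116, adjusted p = 0.0404), and Adam19, a membrane metalloprotease (log2 fold change -0.97 ± 0.13, adjusted p = 0.0493).

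In 24 tested fibroblast and matrix genes, 0 rose and 1 fell (Col6a3), 10 had a positive fold change and the median was -0.18 (-0.74 without the 3 libraries rich in skeletal muscle genes). DESeq2 called 2 higher and 5 lower. Col1a1, the main chain of type I collagen, was at 377, 501, 216 and 339 CPM in MSI tumours, against 677, 763, 1199.5 and 1035 CPM in CIN tumours without overlap and did not pass (log2 fold change -1.36 ± 0.30, adjusted p = 0.198). Another 2 members lay the other way without passing, Apod, a lipid carrier of fibroblasts, at 17.2 to 28.2 CPM in MSI tumours, against 1.32 to 6.6 CPM in CIN tumours (log2 fold change 2.89 ± 0.43, adjusted p = 0.067), and Omd, a small proteoglycan, at 5.04 to 12.8 (MSI) and 0 to 0.888 CPM (CIN) (log2 fold change 4.77 ± 0.75, adjusted p = 0.0856). With the block the proteoglycan Bgn (-1.01 ± 0.09, adjusted p = 0.0179), the hyaluronan synthase Has2 (-1.49 ± 0.20, adjusted p = 0.0482) and the TGF-beta carrier Ltbp3 (-1.12 ± 0.13, adjusted p = 0.0382) also passed, all lower in MSI tumours.

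Of 31 tested genes of activin, BMP and TGF-beta signalling, 0 rose and 1 fell (Ltbp2), with a median of -0.01. Fst, the secreted activin inhibitor follistatin, was at 65.7, 43.2, 79.6 and 33.1 CPM in MSI tumours, against 6.51, 3.06, 6.27 and 2.03 CPM in CIN tumours. The lowest MSI library was thus about 5 times the highest CIN one, and the adjusted p was just outside the threshold (log2 fold change 3.64 ± 0.49, adjusted p = 0.0518). With the replicate block it was the gene with the smallest adjusted p (3.71 ± 0.19, adjusted p = 0.00625). Inhba, which encodes the activin subunit that follistatin binds, was at 32.6 to 100.5 CPM in MSI tumours, against 74.3 to 106 CPM in CIN tumours (log2 fold change -0.27 ± 0.31, adjusted p = 0.815). Amigo2, a leucine-rich adhesion protein, was likewise without overlap, at 251, 163, 297 and 109.7 CPM in MSI tumours, against 31.3, 25.1, 46.4 and 23.3 CPM in CIN tumours (log2 fold change 2.71 ± 0.38, adjusted p = 0.0601, and with the block 2.66 ± 0.20, adjusted p = 0.0124).

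Regulators of development were also among the falls. Wnt10a, a Wnt ligand of skin and its appendages, was at 0.589, 0.712, 1.93 and 1.27 CPM in MSI tumours, against 17.6, 10.2, 8.84 and 10.3 CPM in CIN tumours (log2 fold change -3.44 ± 0.47, adjusted p = 0.0476). It was the 1 call among 30 tested Wnt pathway genes, whose median was 0.04. Esx1, a homeobox gene of placenta and testis on the X chromosome, was at 1.01, 0.777, 1.37 and 1.71 CPM in MSI tumours, against 17, 12.7, 12 and 9.14 CPM in CIN tumours (log2 fold change -3.39 ± 0.35, adjusted p = 0.0333). Greb1, best known as an oestrogen-responsive gene, was at 1.51, 2.98, 1.37 and 3.93 CPM in MSI tumours, against 25.5, 20.6, 15.9 and 17.3 CPM in CIN tumours (log2 fold change -2.99 ± 0.40, adjusted p = 0.0471). In all 3 genes the MSI tumour libraries stayed under 4 CPM while the CIN tumour libraries were above 8 CPM. Sox5, a factor of cartilage and neural development, was at 4.29, 4.21, 6.92 and 3.04 CPM in MSI tumours, against 27, 25.1, 17.8 and 18.3 CPM in CIN tumours (log2 fold change -2.23 ± 0.30, adjusted p = 0.0471). Dach2, a relative of the fly gene dachshund, was at 0.253 to 0.686 (MSI) and 3.05 to 7.39 CPM (CIN) (log2 fold change -3.12 ± 0.41, adjusted p = 0.0471). Hr, the corepressor called hairless, had close values in MSI tumours, 34.9, 38, 39 and 34.3 CPM, against 211, 175, 126 and 114 CPM in CIN tumours (log2 fold change -2.06 ± 0.17, adjusted p = 0.0176).

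The other falls joined genes of the cytoskeleton, metabolism and transport. Tnnt2, the cardiac troponin T, was at 55.8, 27.2, 55.9 and 46.6 CPM in MSI tumours, against 368, 289, 277 and 185 CPM in CIN tumours (log2 fold change -2.58 ± 0.30, adjusted p = 0.0404). Among MSI tumours the library rich in skeletal muscle genes held 55.9 CPM and MSI micronuclei 1, without them, 55.8 CPM. Among CIN tumours both libraries rich in skeletal muscle genes (368 and 289 CPM) lay above both others (277 and 185 CPM). Of all genes tested 27.3% lay in that order. Whether Tnnt2 followed the muscle content was not tested. Synpo, an actin-binding protein of kidney podocytes and dendritic spines, had the smallest called change (log2 fold change -0.74 ± 0.09, adjusted p = 0.0434). Ggct, an enzyme of glutathione turnover, was at 10.1, 5.96, 7.11 and 6.84 CPM in MSI tumours, against 40.1, 38.5, 34.9 and 24.6 CPM in CIN tumours (log2 fold change -2.19 ± 0.21, adjusted p = 0.0274). Pld5, a phospholipase D family member, was at 3.62, 1.62, 2.93 and 2.22 CPM in MSI tumours, against 20.05, 21.6, 14.8 and 9.01 CPM in CIN tumours (log2 fold change -2.60 ± 0.35, adjusted p = 0.0471). Armcx4, an armadillo repeat gene of the X chromosome, was at 2.37 to 4.37 (MSI) and 12.6 to 19.6 CPM (CIN) (log2 fold change -2.26 ± 0.27, adjusted p = 0.0434), Slc7a2, a transporter of cationic amino acids, at 12.4 to 19.8 (MSI) and 37.9 to 51.5 CPM (CIN) (log2 fold change -1.52 ± 0.19, adjusted p = 0.0434), and Sertad4 at 19.96 to 30.9 (MSI) and 56.5 to 104 CPM (CIN) (log2 fold change -1.49 ± 0.18, adjusted p = 0.0434). The last falls were 2 predicted genes. Gm4813 was at 2.28 to 3.53 (MSI) and 8.38 to 16.2 CPM (CIN) (log2 fold change -2.09 ± 0.24, adjusted p = 0.0404), and Gm18722 had 1 read in the 4 MSI tumour libraries together against 150 in the 4 CIN tumour libraries, so no fold is given.

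Of the 5 genes called higher in MSI tumours, Cdh26 alone belongs to one of the lists. Cdh26, a cadherin of epithelia (chr2:178430531-178487366), was at 20.6, 13.4, 23.3 and 7.22 CPM in MSI tumours, against 0.703, 0.645, 0.482 and 0.825 CPM in CIN tumours (log2 fold change 4.58 ± 0.46, adjusted p = 0.0295). It was under 1 CPM in every CIN tumour library, whereas the epithelial markers above overlapped between the tumour types. Among 29 tested cadherin, claudin and epithelial-mesenchymal transition genes it was the 1 call (median 0.08), and Cldn1, a tight junction protein, had the next largest fold change without passing, at 10.01 to 24.3 CPM in MSI tumours, against 0.879 to 4.57 CPM in CIN tumours (log2 fold change 2.63 ± 0.45, adjusted p = 0.111). Sgk1, a kinase induced by serum and glucocorticoids (chr10:21882184-21999903), was at 189, 223, 202 and 161 CPM in MSI tumours, against 81.5, 109, 90.1 and 82.9 CPM in CIN tumours (log2 fold change 1.09 ± 0.14, adjusted p = 0.0434). Dusp1, a phosphatase of the immediate early list, was at 87.7, 58.4, 89.4 and 73.2 CPM in MSI tumours, against 33.1, 36.8, 31.6 and 38.7 CPM in CIN tumours and did not pass (log2 fold change 1.14 ± 0.16, adjusted p = 0.0618). Of that list 16 of 28 had a positive fold change (median 0.02). Dusp1 was picked after its values were seen, and a glucocorticoid response was not tested. Car5b, a mitochondrial carbonic anhydrase, was at 9.75, 8.35, 12.5 and 10.8 CPM in MSI tumours, against 2.81, 2.02, 3.45 and 3.05 CPM in CIN tumours (log2 fold change 1.87 ± 0.22, adjusted p = 0.0404). The predicted protein-coding gene Gm14137 was at 12.7 to 21 (MSI) and 3.43 to 5.52 CPM (CIN) (log2 fold change 1.87 ± 0.23, adjusted p = 0.0434), and the long noncoding RNA G730013B05Rik had 164 reads in the MSI tumour libraries and 4 in the CIN tumour libraries (log2 fold change 5.03 ± 0.68, adjusted p = 0.0471).

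**Figure D3:**
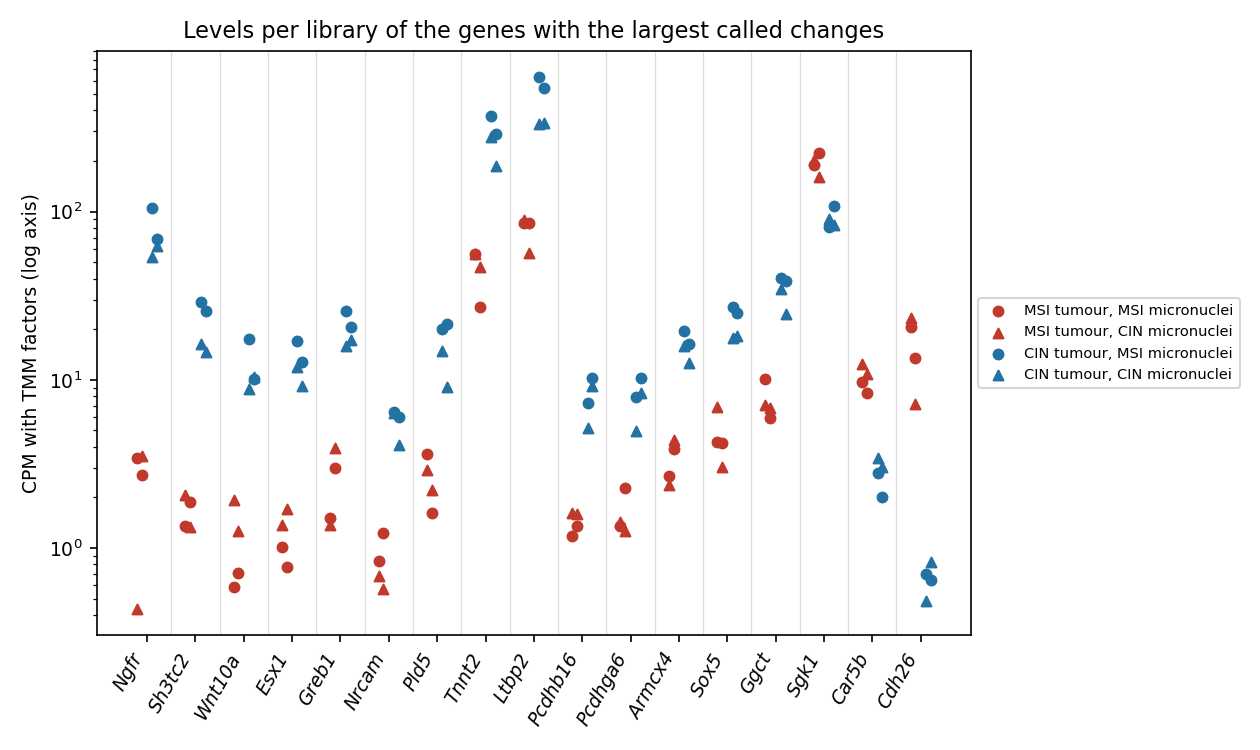
CPM on a log axis (vertical) of the 14 named protein-coding genes with the largest called falls and the 3 with called rises (horizontal axis; mean log2 CPM of at least 1, predicted genes left out) in each of the 8 libraries, red for MSI and blue for CIN tumours, circles for MSI and triangles for CIN micronuclei. In all 17 genes the red and the blue points do not overlap.

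Promoter sequences are shown for the called genes that hold a long run of 1 base, the kind of repeat whose length changes in microsatellite instability. RefSeq promoters on GRCm38.p6 were matched for 22 of the 39 called genes and 11006 of the 17591 tested, and the 200 bases from 250 to 51 before the start were read. A run of at least 8 identical bases, on either strand, was present in 5 of the 22 (22.7%) and in 7.68% of all matched genes. This feature was chosen after the values were seen, and it describes the reference genome, not the DNA of these cells. The 5 sequences are given with the run in capitals. They belong to Ngfr (chr11:95587749-95587948, minus strand, 13 G), Greb1 (chr12:16800937-16801136, minus strand, 11 G), Spp1 (chr5:104434861-104435060, plus strand, 14 T) and Sertad4 (chr1:192855803-192856002, minus strand, 10 T), which were lower in MSI tumours, and Car5b (chrX:164028061-164028260, minus strand, 13 C), which was higher.
Ngfr: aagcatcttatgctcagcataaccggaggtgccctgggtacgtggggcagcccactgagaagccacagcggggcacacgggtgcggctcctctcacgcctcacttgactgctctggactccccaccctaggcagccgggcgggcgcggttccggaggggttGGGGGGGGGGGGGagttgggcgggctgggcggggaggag
Greb1: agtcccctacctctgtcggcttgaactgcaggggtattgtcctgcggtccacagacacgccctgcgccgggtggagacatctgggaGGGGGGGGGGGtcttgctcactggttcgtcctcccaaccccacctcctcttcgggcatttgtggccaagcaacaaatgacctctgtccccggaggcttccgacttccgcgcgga
Spp1: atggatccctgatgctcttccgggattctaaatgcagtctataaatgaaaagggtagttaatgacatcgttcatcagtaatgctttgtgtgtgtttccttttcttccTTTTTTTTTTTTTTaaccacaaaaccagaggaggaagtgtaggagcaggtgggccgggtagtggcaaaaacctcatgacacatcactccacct
Sertad4: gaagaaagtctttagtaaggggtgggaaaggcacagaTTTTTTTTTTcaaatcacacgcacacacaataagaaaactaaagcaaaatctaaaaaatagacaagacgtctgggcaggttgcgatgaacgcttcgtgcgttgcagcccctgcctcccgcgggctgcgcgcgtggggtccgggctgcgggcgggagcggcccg
Car5b: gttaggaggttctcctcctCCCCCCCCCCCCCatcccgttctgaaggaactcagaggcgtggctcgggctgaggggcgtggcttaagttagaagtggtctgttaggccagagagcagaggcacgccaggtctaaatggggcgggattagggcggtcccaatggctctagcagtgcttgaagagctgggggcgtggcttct
The letters TATAAA, on either strand, were in 3 of the 22 windows (Spp1, Dach2 and Sulf2, 13.6%) and in 4.91% of all. The windows end 51 bases before the start, so such letters nearer to it were not counted. Runs of 6 CA or TG units were in 2 (Adam19 and Dach2; 9.09%) against 0.436%. The median number of CG pairs was 7 in the called and 10 in all windows. A match is a description of letters and not a bound site.

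In edgeR no gene of the DNA sensing and interferon lists was called. Of 22 tested genes of cytosolic DNA sensing none passed (U 5, D 2, median 0.15), and the DESeq2 calls were Tbk1 (higher) and Mndal (lower). The sensor cGAS, listed as Mb21d1, was at 7.48, 9.13, 10.7 and 6.78 CPM in MSI tumours, against 12.7, 9.83, 8.27 and 6.54 CPM in CIN tumours (log2 fold change -0.10 ± 0.26, adjusted p = 0.912). Its adaptor STING, listed as Tmem173, was at 46.6 to 63.2 (MSI) and 46.2 to 57.4 CPM (CIN) (log2 fold change 0.15 ± 0.14, adjusted p = 0.779), and the sensor Zbp1 at 63.5 to 108 (MSI) and 37.5 to 65.3 CPM (CIN) (log2 fold change 0.64 ± 0.21, adjusted p = 0.374). The kinase Tbk1 was higher in each MSI than in each CIN tumour library, 57.1 to 72.9 against 44 to 53.8 CPM, without passing in edgeR (log2 fold change 0.37 ± 0.11, adjusted p = 0.321). None of 36 type I interferon response genes passed either (U 4, D 0), and 26 had a positive fold change (median 0.19). Without MSI tumour with CIN micronuclei 1, where 7.58% of all genes were called, Zbp1 and Oasl2 were called higher. Isg15, a ubiquitin-like protein of that response, was at 28.5, 18.7, 24.3 and 34.3 CPM in MSI tumours, against 22.6, 20.5, 22.8 and 31.3 CPM in CIN tumours (log2 fold change 0.12 ± 0.20, adjusted p = 0.857), and Ifit1 at 30.5 to 51.5 (MSI) and 21.8 to 46 CPM (CIN) (log2 fold change 0.30 ± 0.21, adjusted p = 0.722).

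Among 23 interferon gamma response genes 0 were called (U 3, D 3), with 19 positive and a median of 0.16. Cxcl9, a chemokine that draws T cells, was at 369, 218, 376 and 357 CPM in MSI tumours, against 141, 136, 194 and 154 CPM in CIN tumours (log2 fold change 1.08 ± 0.18, adjusted p = 0.095), and Gbp4, a guanylate-binding protein, at 160.0 to 279 (MSI) and 86.2 to 143 CPM (CIN) (log2 fold change 1.20 ± 0.19, adjusted p = 0.0855). Nos2, the inducible nitric oxide synthase, lay the other way, at 35.6, 23.9, 37 and 33 CPM in MSI tumours, against 60.4, 60.7, 77.8 and 59.2 CPM in CIN tumours (log2 fold change -0.998 ± 0.161, adjusted p = 0.0875). All 3 were without overlap between the tumour types, were the DESeq2 calls of the list, and passed with the replicate block, where Cxcl9 was at 1.07 ± 0.14, adjusted p = 0.0398, Gbp4 at 1.19 ± 0.16, adjusted p = 0.0448 and Nos2 at -1.01 ± 0.12, adjusted p = 0.0391. Cxcl10, the partner of Cxcl9, was at 126 to 297 (MSI) and 128 to 214 CPM (CIN) (log2 fold change 0.49 ± 0.27, adjusted p = 0.622), and Ifng itself at 1.17 to 4.74 (MSI) and 1.52 to 4.42 CPM (CIN) (log2 fold change 0.02 ± 0.47, adjusted p = 0.991). MHC class I presentation (22 tested, median 0.10, U 3, D 1) and MHC class II presentation (16 tested, median 0.18, U 1, D 0) had 0 calls each.

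No gene of the lymphocyte lists was called in edgeR. T cell genes gave 0 calls of 24 (U 1, D 0), with 21 positive and a median of 0.32. Without the 3 libraries rich in skeletal muscle genes 11 of the 24 were positive and the median turned to -0.11. That fit sets 1 MSI against 2 CIN tumour libraries, and no direction is read. Cytotoxic and NK effectors gave 0 of 20 (median 0.13, U 0, D 0), immune checkpoints 0 of 14 (median 0.09, -0.14 without those libraries, U 1, D 0) and regulatory T cells 0 of 9 (median -0.09, U 2, D 1). Cd8a, the coreceptor of cytotoxic T cells, was at 22.5, 12.7, 25.2 and 21.7 CPM in MSI tumours, against 20.2, 12.9, 25.1 and 22.9 CPM in CIN tumours (log2 fold change 0.03 ± 0.23, adjusted p = 0.972). Gzmb (0.07 ± 0.29), Prf1 (0.33 ± 0.36), the chemokine Ccl5 (-0.34 ± 0.18), Foxp3 (-0.46 ± 0.57) and Cd274, which encodes PD-L1 (-0.13 ± 0.13), had adjusted p-values between 0.604 and 0.943, and their groups overlapped. B and plasma cell genes had a median of 1.11, with 19 of 20 positive, yet 0 passed (U 0, D 0) and 0 were without overlap. Their score was -0.16 in CIN tumour with MSI micronuclei 1, the library poorest in colon epithelium genes, and 2.55 to 4.84 in the other 7. Without this library the B cell median was 0.48, and without the 3 libraries rich in skeletal muscle genes, of which it is 1, the median was 0.53. Dendritic cell genes gave 0 calls of 16 (median 0.10, U 0, D 0).

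Mast cell genes were the list with the highest median, 2.24 over 11 tested, with 9 positive and 0 called in edgeR (U 6, D 6). The DESeq2 calls, all higher in MSI tumours, were Cma1, Cpa3, Hpgds, Mcpt2, Mcpt4 and Tpsb2. In 6 of the 11 genes the MSI tumour libraries lay above all CIN tumour libraries, as in 3.58% of all genes tested. The proteases Tpsb2, Cpa3, Mcpt2, Mcpt4 and Cma1 are stored in mast cell granules, and Hpgds makes prostaglandin D. Tpsb2 was at 8.74, 5.12, 5.42 and 5.13 CPM in MSI tumours, against 0.352, 0.0806, 1.12 and 1.27 CPM in CIN tumours (log2 fold change 3.35 ± 0.69, adjusted p = 0.163), and Cpa3 at 2.35, 3.5, 4.61 and 2.92 CPM (MSI), against 0, 0.0806, 0.723 and 0.0635 CPM (CIN) (log2 fold change 4.16 ± 0.89, adjusted p = 0.176). Mcpt2 was at 2.09 to 5.76 (MSI) and 0 to 0.444 CPM (CIN) (log2 fold change 4.12 ± 1.02, adjusted p = 0.236). Kit, the receptor mast cells share with the pacemaker cells of the gut wall, overlapped, at 9.91 to 39.99 (MSI) and 2.37 to 37.8 CPM (CIN) (log2 fold change 0.59 ± 0.77, adjusted p = 0.833). The summed level of the list was 54.7 to 88.3 CPM in MSI and 24.8 to 62.6 CPM in CIN tumours. The colon epithelium score was lowest in CIN tumour with MSI micronuclei 1. With that score as a covariate the list median was 1.42 and 9 of 11 stayed positive. In that fit, where 1.39% of all genes were called, edgeR called Cma1, Cpa3, Mcpt2 and Tpsb2 higher. Without MSI tumour with CIN micronuclei 1, where 7.58% of all genes were called, edgeR called 5. Leaving out each of the 8 libraries in turn gave medians of 1.94 to 3.37.

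Most inflammatory cytokines and chemokines had a negative fold change. None of 22 tested genes passed in edgeR (U 9, D 7), 18 had a negative fold change and the median was -0.49. DESeq2 called Csf2, Cxcl2, Cxcl3, Il11, Lif and Nos2 lower and Ccl2 higher. Members without overlap and with less in MSI tumours were Cxcl2 and Cxcl3, which attract neutrophils, Lif, Csf2, Il1b and Nos2. Of all genes tested 3.88% lay that way. Cxcl3 was at 1.43, 2.53, 1.25 and 0.253 CPM in MSI tumours, against 4.57, 6.37, 6.35 and 5.27 CPM in CIN tumours (log2 fold change -2.18 ± 0.57, adjusted p = 0.259), and Cxcl2 at 4.88, 2.4, 1.75 and 1.27 CPM (MSI), against 5.1, 6.69, 8.35 and 5.08 CPM (CIN) (log2 fold change -1.42 ± 0.44, adjusted p = 0.343). Il6 overlapped, at 0.312 to 1.62 (MSI) and 1.41 to 3.71 CPM (CIN) (log2 fold change -1.71 ± 0.58, adjusted p = 0.403). Ccl2, which recruits monocytes, lay the other way, at 190.2, 105, 204 and 162 CPM in MSI tumours, against 98.4, 79.2, 99.8 and 74.7 CPM in CIN tumours (log2 fold change 0.90 ± 0.22, adjusted p = 0.236). Neutrophil genes had a median of -0.76, with 0 called of 9 (U 1, D 0), and none of 8 eosinophil genes reached the level needed for a test.

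Vessel and hypoxia genes had medians of opposite sign without a call in edgeR. Of 18 endothelial genes 17 had a positive fold change (median 0.63) and 0 were called (U 8, D 3: Cdh5, Esam and Pecam1, all higher). Without the 3 libraries rich in skeletal muscle genes, a fit limited as stated above, 10 of the 18 were positive and the median was 0.022. Their score was 3.40 to 3.86 in MSI and 2.60 to 3.56 in CIN tumours. Of 28 hypoxia and glycolysis genes 23 had a negative fold change (median -0.26) and 0 were called (U 6, D 5: Bnip3, Egln1, P4ha2, Slc16a3 and Vegfa, all lower). Without MSI tumour with CIN micronuclei 1, where 7.58% of all genes were called, 9 were called lower. Their score did not overlap, at 7.11 to 7.39 in MSI and 7.44 to 7.63 in CIN tumours. Vegfa, the endothelial growth factor that hypoxia induces, was at 198, 184, 262 and 130.0 CPM in MSI tumours, against 408, 378, 279 and 320.2 CPM in CIN tumours (log2 fold change -0.82 ± 0.22, adjusted p = 0.282), and P4ha2, a collagen prolyl hydroxylase, at 18.7, 19.4, 29.6 and 13.2 CPM (MSI), against 70.6, 51.9, 41.5 and 38.4 CPM (CIN) (log2 fold change -1.29 ± 0.29, adjusted p = 0.198).

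No gene of the lists on division, damage and stress was called in edgeR. The sources used here do not say how the lines were made, so no gene serves as a check of the labels. Chromosome segregation gave 0 of 24 (median 0.00, U 1, D 1), with Cenpf called lower by DESeq2. Cell cycle and replication gave 0 of 25 (median -0.27, U 3, D 0), but 11 were called lower without MSI tumour with CIN micronuclei 1, among them Mki67, Top2a, Mcm2, Mcm3, Mcm5 and Mcm6. That fit called 7.58% of all genes. For p53 and DNA damage the count was 0 of 23 (median 0.09, U 3, D 2), for amino acid stress 0 of 16 (median -0.02, -0.81 without the 3 libraries rich in skeletal muscle genes, U 2, D 1) and for immediate early genes 0 of 28 (median 0.02, U 7, D 4). DESeq2 called Sesn1, Dusp1 and Spry2 higher and Phlda3, Mthfd2, Dusp4 and Egr3 lower in these 3 lists.

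The remaining tissue lists gave no call in edgeR either. They were keratins (17 tested, median 0.70, U 2, D 2), pericytes and smooth muscle (21, 0.71, U 3, D 2), colon epithelium (25, 0.85, U 0, D 0), adipocytes (6, -0.16, U 1, D 1), mesothelium (9, 0.02, U 1, D 1), lymphatic vessels (7, -0.08, U 0, D 0) and 4 genes of the Y chromosome (0.65, U 0, D 0). Of the medians of keratins, pericytes and smooth muscle, and colon epithelium, the lowest over the fits that leave out 1 library were 0.0031, 0.023 and 0.23, each without MSI tumour with CIN micronuclei 2. The skeletal muscle median was 0.35 over 17 genes (U 0, D 0), -0.33 with the replicate block and -2.70 to 3.16 when 1 library was left out. Without MSI tumour with CIN micronuclei 1 it was -2.45, with 5 called lower where 7.58% of all genes were called, so it has no stable sign.

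**Figure D4:**
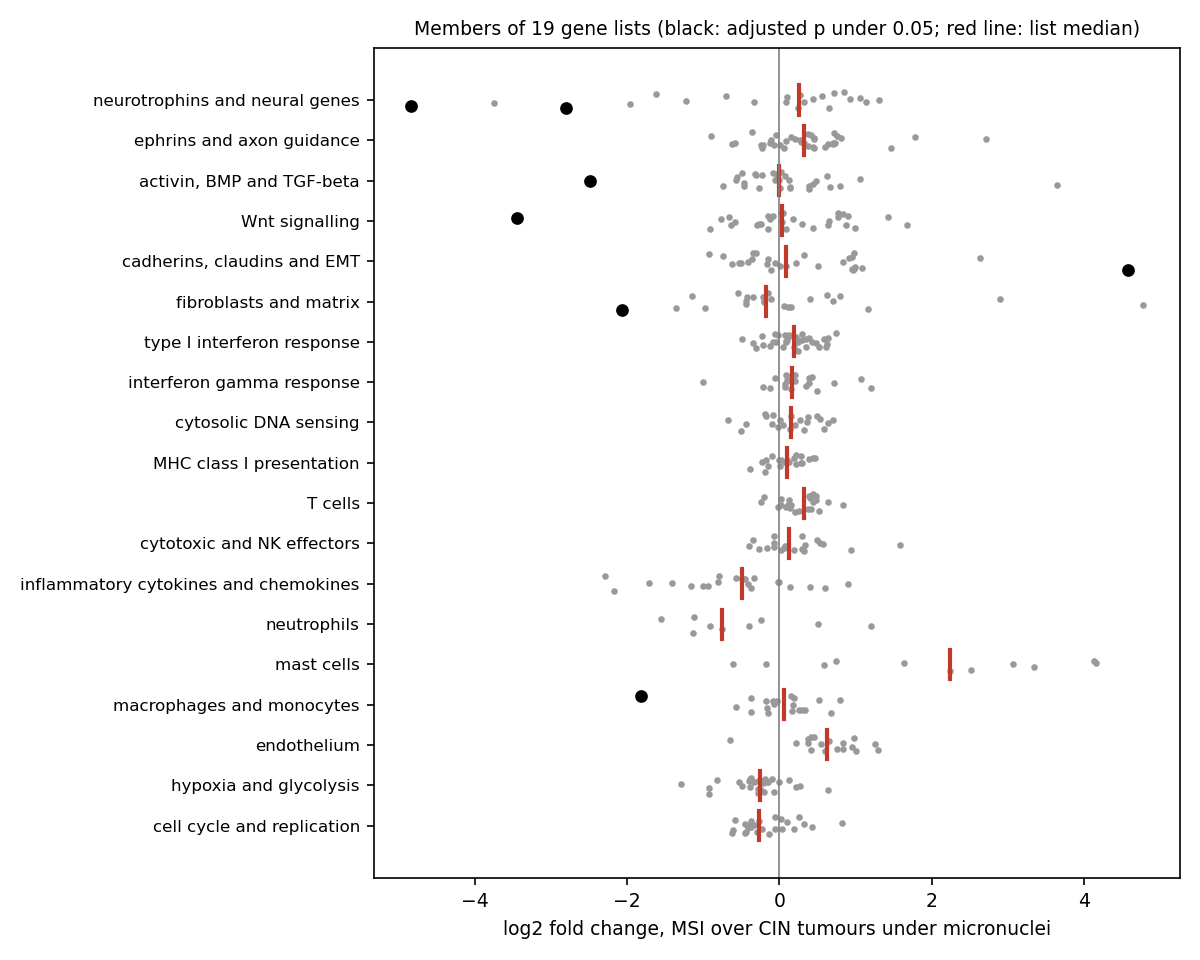
Log2 fold change, MSI over CIN tumours, of each tested member (points) of 19 lists (rows), with called genes in black and the list median as a red line. Mast cell genes have the highest median, 2.24. In some lists uncalled members lie further from 0 than a called gene, as Omd does beside Col6a3 and Fst beside Ltbp2.

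No gene was called for a tumour difference that depended on the source of the micronuclei. The difference between the tumour effect with MSI micronuclei and that with CIN micronuclei gave 0 calls of 17591 (0%), with 329 genes at an unadjusted p under 0.05, and DESeq2 gave 31 calls, none among the 39. Without MSI tumour with CIN micronuclei 2 edgeR gave 14, also none among the 39. On simulated counts of this comparison 18% of 8-fold and 3.12% of 4-fold changes were recovered, so most 4-fold differences would have been missed. For Ngfr the log2 fold change was -4.81 with MSI micronuclei and -4.86 with CIN micronuclei. Wnt10a was at -4.39 and -2.58, and Sh3tc2 at -4.06 and -3.18. The fold change was larger in size with MSI micronuclei in 26 of the 34 falls. This was not counted over all genes, so it is not read as particular to the falls. In CIN tumours 23 of the 34 had both MSI micronuclei libraries above both CIN micronuclei libraries and 0 had them below, where 27.3% of all genes tested lay above and 28.1% below. In MSI tumours 7 of the 34 lay above and 4 below (5.28% and 8.17% of all genes). Both CIN tumour libraries with MSI micronuclei were also those rich in skeletal muscle genes, so in CIN tumours the source and that tissue difference cannot be told apart.

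The same contrast in the 8 free DNA libraries, which share none of the libraries above, gave differences of the same kind. There dendritic cells had been exposed to free cytosolic DNA of MSI or CIN cells instead of micronuclei. Of 17889 genes tested 93 were called (0.52%), 21 higher (0.117%) and 72 lower (0.402%) in MSI tumours, and 25 with the replicate block. All 39 genes called under micronuclei had the same sign and an unadjusted p under 0.05 under free DNA. Of all 17889 genes tested there, 2674 had an unadjusted edgeR p under 0.05, in either direction. Both comparisons called 21 genes, 53.85% of the micronuclei calls and 22.8% of the 92 free DNA calls tested in both, each in the same direction. Ngfr was at 1.7, 4.77, 1.57 and 4.3 CPM in MSI tumours, against 48.9, 104, 85.5 and 112 CPM in CIN tumours under free DNA, listed in the same order (log2 fold change -4.81 ± 0.48, adjusted p = 0.0139). Sh3tc2 (-3.77 ± 0.22), Hr (-2.20 ± 0.14), Spp1 (-2.20 ± 0.25), Cdh26 (5.16 ± 0.63) and Sgk1 (1.31 ± 0.13) were also called there, whereas Ltbp2 (-2.73 ± 0.47, adjusted p = 0.0627) and Car5b (1.05 ± 0.42, adjusted p = 0.305) were not. Fst and Amigo2, just outside the threshold under micronuclei, were called under free DNA (3.51 ± 0.20 and 2.67 ± 0.21, adjusted p = 0.00154 and 0.00634). So was Zbp1 (1.12 ± 0.11, adjusted p = 0.0139).

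Whether these differences depended on the form of DNA was tested over all 16 libraries. The tumour by form term gave 0 calls of 18777 (0%), with 159 genes at an unadjusted p under 0.05, and DESeq2 also gave 0 (204 unadjusted). The fold change was larger in size under free DNA in 31 of the 34 falls and in 2 of the 5 rises. The same count over all genes was not made, so nothing particular to the called genes is read from it. For Zbp1 the term was -0.49 ± 0.24 and for Il6 3.57 ± 1.07 (adjusted p = 1 for both), so a call in one form alone was not shown to be a difference between the forms.

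**Figure D5:**
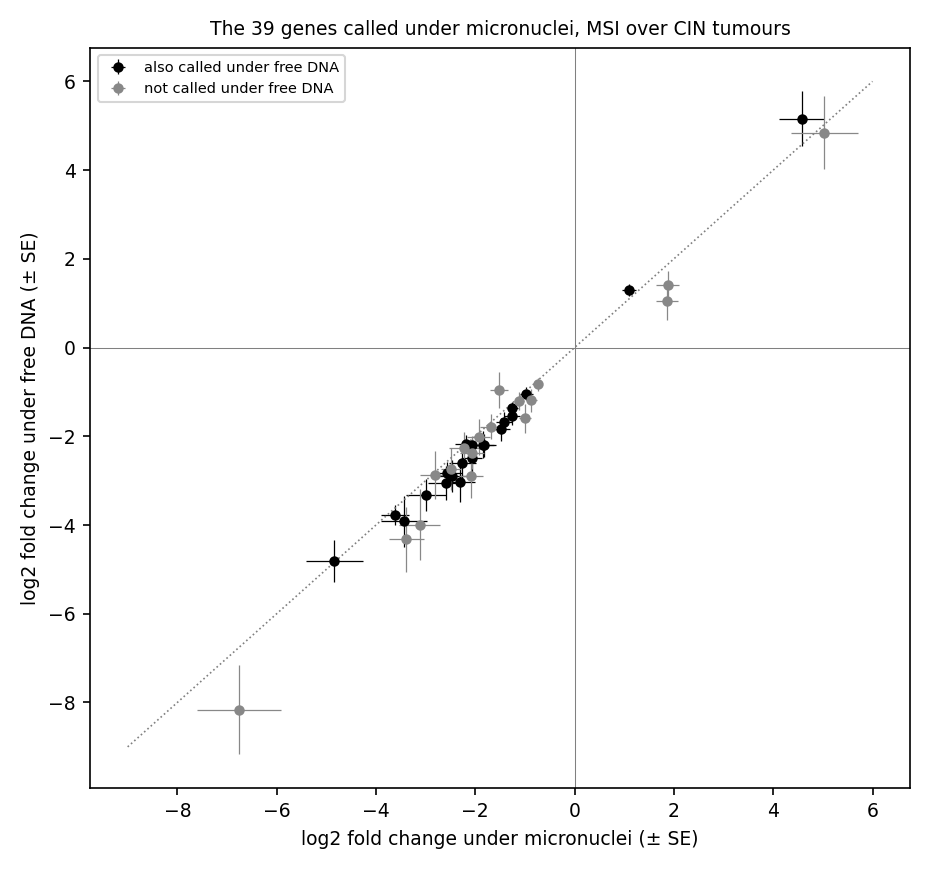
Log2 fold change, MSI over CIN tumours, under micronuclei (horizontal axis) and under free DNA (vertical axis) of the 39 genes called under micronuclei, with standard errors as bars and a dotted line of equality. All 39 points have the same sign on both axes, and the 21 black points were called in both comparisons.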

How the data were processed

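Poly-A RNA was sequenced from 16 tumour libraries, 8 of which received dendritic cells with micronuclei. The authors deposited whole-number counts per gene, made with fastp, HISAT2 2.0.5 and featureCounts 1.5.0-p3 per the submitters' processing notes. The deposited FPKM values were these counts per gene length and per library total (relative tolerance 1e-06) and served as a check. The notes name GRCm39, but of the 54495 identifiers also in GENCODE M21 (GRCm38) 53585 had identical coordinates there, so GRCm38 is given. The sources used here give no strand setting, so antisense and overlapping genes may share reads. Each file had 4 columns that matched no sample and were left out.

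From the counts, edgeR 4.0.16 in R 4.3.3 was fitted to the 8 micronuclei libraries (TMM scaling, filterByExpr by group, robust quasi-likelihood test, DNA source as covariate) with Benjamini-Hochberg adjustment over all genes at 0.05. The free DNA libraries were fitted the same way, and both interactions with 1 mean per group. A log2 fold change is MSI over CIN and is given with its SE. Common biological variation between libraries was 0.443, so the spread between libraries, more than counting, limited precision. On simulated counts of the tumour comparison (17089 genes) 14.1% of 2-fold, 67.1% of 4-fold and 77.3% of 8-fold changes were recovered. DESeq2 1.42.0, other scalings, filters and covariates, a replicate block and leaving out each library were alternatives.

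Named were up to 14 called protein-coding genes in each direction by fold change (mean log2 CPM of at least 1, no overlap), up to 4 called members of each of 38 gene lists, and 28 genes whatever their result. The other called genes and the list members without overlap were named after their values were seen. The result of 1 called gene and of 1 gene list is not reported here. The members and lists were chosen with earlier results of these data known. The labels number the libraries 1 and 2 in every group. Deviations from the group means of same-numbered libraries correlated at 0.319 to 0.695 in all 6 pairs, which are not independent. The labels state no pairing. Library 1 had the lower colon epithelium score in every micronuclei group, so pairing and tissue makeup cannot be told apart there. Under free DNA it had the lower score in both MSI tumour groups. In both CIN tumour groups its score was higher (8.08 against 6.66 and 7.02 against 6.74). The block is therefore only an alternative, and the blocked value stands beside a result it changes.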

Additional observations from a re-analysis of the deposited data

Results flagged for a closer look

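In 12 of 140 groups of 4 libraries examined, 1 library stood apart from the other 3 (a gap to its nearest neighbour past the 95% limit of Dixon's ratio). Chance gives about 1 in 20. Among called genes, Nrcam was at 4.12 CPM in CIN tumour with CIN micronuclei 2, against 6.05 to 6.42 CPM in the other CIN tumour libraries. Ltbp2 was at 56.8 CPM in MSI tumour with CIN micronuclei 2, against 85.2 to 89.1 CPM in the other MSI tumour libraries. Pcdhga6 was at 2.27 CPM in MSI tumour with MSI micronuclei 2, against 1.27 to 1.43 CPM. Gm18722 was at 0.0623 CPM in MSI tumour with CIN micronuclei 1, from 1 read, and at 0 in the other 3. All 4 lay on the same side of the other tumour type as the rest of their group.

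Among genes that were not called, the same library of MSI tumour with CIN micronuclei 2 was low in Inhba, at 32.6 CPM against 90.8 to 100.5 CPM. Cxcl9 was at 217.7 CPM in MSI tumour with MSI micronuclei 2, against 356.6 to 376.4 CPM in the other MSI tumours. Tpsb2 was at 8.74 CPM in MSI tumour with MSI micronuclei 1, against 5.12 to 5.42 CPM. In CIN tumours, Tbk1 was at 44.0 CPM with MSI micronuclei 1 (others 52.3 to 53.8 CPM), Cd274 at 67.1 CPM with CIN micronuclei 1 (others 56.3 to 57.8 CPM) and Cpa3 at 0.723 CPM with CIN micronuclei 1 (others 0 to 0.0806 CPM).

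Of the tissue scores, pericytes and smooth muscle were at 3.62 mean log2 CPM in CIN tumour with MSI micronuclei 1, against 6.05 to 6.42 in the other CIN tumours. The skeletal muscle score was 5.23 in MSI tumour with CIN micronuclei 1, against -0.54 to 0.01 in the other MSI tumours.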

How the results depend on the processing

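The 39 calls were few and unstable in number. Each kept its sign under all 21 alternatives. These mostly refit the same libraries, and genes without overlap would hardly change sign, so this adds no support. DESeq2 gave 942 (384 higher, 558 lower, with all 39), no filter on low counts 112 (38 of the 39), a fit of all 16 libraries 99 (32), the colon epithelium covariate 244 (39) and the replicate block 65 (38). With 1 mean per group 4 were left, without the 3 libraries rich in skeletal muscle genes 0, and with MSI or CIN micronuclei alone 0 and 0, where 3159, 1438 and 519 genes had an unadjusted p under 0.05. Leaving out 1 library gave 0 to 1403. These fits hold fewer residual degrees of freedom, as do those with the replicate block (65) and the colon epithelium covariate (244). An arm left with 1 library was assumed to vary like the others. Without the 3 libraries rich in skeletal muscle genes, the tumour term compared 1 MSI tumour library with both libraries of CIN tumour with CIN micronuclei. The cause of the large moves, up or down, was not tested. Under free DNA the 93 calls became 945 with DESeq2, 513 without the filter, 25 with the replicate block and 4 to 209 when 1 library was left out. The tumour by form term stayed at 0 in every alternative run. The tumour by source term gave 31 with DESeq2, 0 with the replicate block and 0 to 14 when 1 library was left out.

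Among the 25 named genes that were not called, some near 0 changed sign. Ifng was at -0.0024 in the fit of all 16 libraries and -0.49 with MSI micronuclei alone, Gzmb at -0.19 with MSI micronuclei alone, Cd8a at -0.13 without the 3 libraries rich in skeletal muscle genes and -0.034 with CIN micronuclei alone and Mb21d1 at 0.24 with CIN micronuclei alone. Leaving out 1 library moved Cd8a between -0.14 and 0.16, Gzmb between -0.12 and 0.26, Ifng between -0.31 and 0.28, Mb21d1 between -0.31 and 0.054 and Prf1 between -0.059 and 0.60. No direction is read for these genes. Of the 507 values of called genes under the other alternatives 339 stayed past the threshold, and of 312 with 1 library left out 58 did. The replicate block changed no call of the micronuclei comparison among the named genes beside those stated with the results.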

Other observations

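Some members of the tissue lists that no result above turned on also had 4 against 4 libraries without overlap, with none past the threshold in edgeR, whereas DESeq2 called Krt14, Msln, Cspg4 and Pdgfrb. Krt14, a keratin of basal epithelial cells, was at 16.7, 10.6, 15.5 and 22.6 CPM in MSI tumours, against 109, 82.5, 53.3 and 42.3 CPM in CIN tumours (log2 fold change -2.07 ± 0.36, adjusted p = 0.114), while 14 of 17 keratins had a positive fold change. Msln, the mesothelin of mesothelium and some carcinomas, lay the other way, at 186, 119, 187 and 46.5 CPM in MSI tumours, against 35, 27.7, 38.1 and 21.2 CPM in CIN tumours (log2 fold change 2.13 ± 0.45, adjusted p = 0.192). The other 8 tested mesothelium genes were split about 0, and the list median was 0.02. Cdh19, a cadherin of Schwann cells, was at 0 to 3.36 CPM in MSI and 13.6 to 21.6 CPM in CIN tumours (log2 fold change -3.42 ± 1.02, adjusted p = 0.342), and the pericyte genes Cspg4 and Pdgfrb had log2 fold changes of -1.30 ± 0.34 and -0.87 ± 0.22 (adjusted p = 0.259 and 0.248) in a list of which 18 of 21 were positive.

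Genes named by no list passed once the replicate number was a block. The retinoic acid binding protein Crabp2 (-1.499 ± 0.146, adjusted p = 0.0204), the fatty acid binding protein Fabp5 (-0.83 ± 0.10, adjusted p = 0.0398), the chemokine scavenger Ackr3 (-1.29 ± 0.16, adjusted p = 0.0398) and the acyl-CoA synthetase Acsbg1 (-1.499 ± 0.146, adjusted p = 0.0204) were lower in MSI tumours, and the transcription factor Osr1 was higher (1.11 ± 0.14, adjusted p = 0.0408). Without the block their adjusted p-values ran from 0.124 (Fabp5) to 0.22 (Crabp2). By chromosome, 5 of 432 tested genes were called on chromosome 18, where 0.222% of all genes were called. The count was 6 of 1103 on chromosome 1, 4 of 540 on the X chromosome and 0 of 1376 on chromosome 7. Those on chromosome 18 were Sh3tc2, Synpo, Pcdhb16, Pcdhb17 and Pcdhga6. The Pcdh genes among them lie between 37477814 and 37841873. Whether the calls cluster was not tested.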
